A study of Capsella grandiflora and Capsella rubella with 18 samples.

Results

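Some genes of Capsella lie so close that the gene table gives them one shared stretch of genome. Of the 19350 gene rows measured, 2496 (12.9%) carried a coordinate string identical to that of at least 1 other row, and these rows are described here. They were chosen from coordinates alone, without any expression value. They formed 1224 shared loci, of which 1178 held 2 rows, 44 held 3 and 2 held 4. Rows of the same locus are called partners below, and there were 1322 partner pairs. The remaining 16854 rows each had coordinates of their own, and every consecutive pair of such rows on a scaffold (15644 neighbour pairs, median gap 1700 bp) served for comparison.

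RNA with poly(A) tails was sequenced as paired-end Illumina libraries from greenhouse plants of 2 sister species. Capsella rubella is self-compatible, and its mixed-stage flower buds gave 4 libraries, 1 of them from a line inbred in the greenhouse since 2002. Capsella grandiflora is outcrossing, and its mixed-stage flower buds gave another 4 libraries, 1 of them from an F1 plant of a cross within the species. Maturing leaves of C. grandiflora gave 10 libraries, again with 1 F1 plant, and were included by the study to annotate expression outside the flower. Places of origin are given for the plants, and no treatment or altered gene is named. Bud and leaf libraries carry different plant names, so no plant is known to have given both, though 1 bud and 1 leaf plant came from Pili and the F1 plants of both tissues from Corfu crosses. The labels do not say whether any plants were pooled, and p-values measure the spread between these libraries.

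Neighbouring genes can overlap at their ends, most often tail to tail, or one gene can lie within another. In plants, overlapping genes on opposite strands are known as natural antisense pairs, and their transcripts can pair with each other. Overlap also touches the measurement: a read from the shared stretch can be given to either gene unless the library keeps the strand. Neither the strand of the rows nor whether strand was kept in these libraries is stated in the sources used here, so reads of partners may have been divided between them, and every value below is uncertain to that extent. The IDs are not paired with gene names in the table, and no sequence or annotation was at hand, so roles are not given and the tissue labels were not checked against marker genes.

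Levels are FPKM, fragment counts scaled to transcript length and library size, as the authors deposited them. FPKM sums were 576725 to 657140 per bud library and 1307609 to 1858148 per leaf library, and read totals were not used here, so the depth is unknown. Bud values carry 2 decimals and leaf values more, and both differ in scale, so tissue and the processing of these columns cannot be told apart. In C. rubella bud library 1 and C. grandiflora bud library 1, 1137 and 1023 rows hold exactly 0.5 and only 4 and 6 rows hold 0. All of those rows at 0 share their coordinates with another row, and 27 and 32 of the rows at 0.5 do. Leaf library 4 stood apart from the other leaves: of the 432 rows of shared loci with 1 leaf library far above the rest, 257 had it in that library, and of 2624 such rows among the others 1296 did.

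Shared loci were spread over the genome and were long. They took 10.5% (scaffold 2) to 14.9% (scaffold 6) of the rows on each of the 8 main scaffolds of the CR v1 JGI build. Their median span was 5039.5 bp (quartiles 4001 and 6497.5), against 2301 bp (quartiles 1609 and 3242.75) for loci with a single row. Among all 18078 distinct loci only 1 overlapped the locus before it, and both of these were single-row loci. Overlap between rows of the table was otherwise found only where the coordinate strings were identical, so each string can be read as the joint span of its rows and not as the extent of a gene.

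The rows of shared loci sat slightly below other rows in buds and well above them in leaves. In C. rubella buds their median level was 9.63 ± 0.237 FPKM, against 11.03 ± 0.209 FPKM for the other rows (SD, n = 4 libraries). In C. grandiflora buds it was 9.64 ± 0.320 FPKM, against 10.7 ± 0.259 FPKM (SD, n = 4). In leaves it was 16.0 ± 1.84 FPKM, against 8.47 ± 1.17 FPKM (SD, n = 10). The gap between the medians, on the log2 scale, ran from -0.19 to -0.15 over the C. rubella buds, from -0.18 to -0.10 over the C. grandiflora buds and from 0.77 to 0.91 over the leaves. Every bud library thus had the rows of shared loci below the other rows, and every leaf library had them above. They contributed 8.44 ± 0.156% of the FPKM sum in C. rubella buds, 7.88 ± 0.180% in C. grandiflora buds and 15.7 ± 1.59% in leaves (SD over 4, 4 and 10 libraries).

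**Figure D1:**
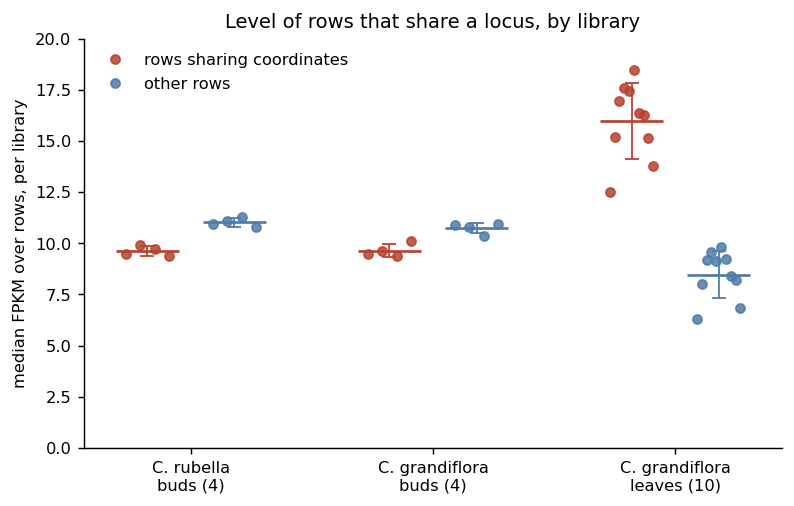
Median level over rows in each library, in FPKM, for rows that share coordinates (red) and other rows (blue), with points for libraries and lines for the mean and SD over libraries. In leaves the red points lie between 12.51 and 18.5 FPKM and the blue points between 6.30 and 9.80 FPKM, while in buds the red points lie below the blue ones.

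Few rows of shared loci were listed at 0. In leaf libraries these were 2.08% to 4.05% of them, against 13.9% to 17.0% of the other rows. In the 6 bud libraries without 0.5 in place of 0, the shares were 1.56% to 2.003%, against 5.89% to 8.73% of the other rows. Both partners reached a group mean of 1 FPKM in 84.1% of the 1322 pairs in C. rubella buds, 85.8% in C. grandiflora buds and 82.6% in leaves. Among neighbour pairs those shares were 75.4%, 77.6% and 57.9%. Neither partner reached it in 0.378%, 0.681% and 1.29% of pairs, against 3.62%, 2.69% and 8.21% of neighbour pairs.

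Partners nevertheless differed in level from each other. The median absolute difference between partners, on the log2(FPKM + 1) scale, was 1.48 ± 0.0246 in C. rubella buds, 1.43 ± 0.0215 in C. grandiflora buds and 2.04 ± 0.0545 in leaves (SD over libraries). Neighbour pairs differed by 1.71, 1.67 and 2.25. Partners were apart by at least 2 on this scale in 35.2%, 35.0% and 49.8% of pairs, and neighbours in 42.8%, 41.9% and 53.2%. Pairs with only 1 row at a group mean of 1 FPKM enter these values. They were 15.5%, 13.5% and 16.1% of partner pairs and 21.0%, 19.7% and 33.8% of neighbour pairs. The same partner was the higher one in every library of the group in 87.3%, 86.5% and 69.8% of pairs, against 85.2%, 84.2% and 69.6% of neighbour pairs.

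The extremes show the range that a single locus could hold. At scaffold 6, 438681 to 442881, Carubv10002373m measured 3347, 2619.8, 2724 and 2825 FPKM in C. rubella buds and 2588, 1629.8, 1626 and 1517 FPKM in C. grandiflora buds, and leaves ran from 10265 over a median of 17155 to 21109.6 FPKM. Its partner Carubv10003495m measured 5.62, 6.18, 5.79 and 7.82 FPKM in C. rubella buds and 9.15, 10.6, 11.3 and 10.97 FPKM in C. grandiflora buds, with leaves from 1.89 over a median of 7.18 to 20.7 FPKM. The abundant row was thus the higher of the pair in all 18 libraries, by 9.604 on the log2(FPKM + 1) scale on average. At scaffold 4, 9793592 to 9798721, Carubv10022744m and Carubv10023552m were nearly equal, apart by 0.218 on that scale. Carubv10022744m had a mean of 9.72 ± 0.452 FPKM in C. rubella buds and 10.7 ± 0.632 FPKM in C. grandiflora buds, and Carubv10023552m had 10.7 ± 1.09 and 9.88 ± 0.281 FPKM in those groups (SD, n = 4 each).

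The first comparison asked whether buds of the selfing and the outcrossing species differed. Rows of shared loci differed between species somewhat less often than the table as a whole, in both directions about equally. Of the 2300 rows of shared loci tested, 437 (19.0%) passed an adjusted p of 0.05 in limma's moderated test, 227 higher and 210 lower in C. rubella. Over all 16923 rows tested that share was 23.9%, with 11.9% higher and 12.0% lower. Single-row loci were called in 29.96%, 26.96%, 23.1% and 19.95% of rows tested over quartiles of their span, from short to long. Rows of shared loci, by quartiles of their own spans, were called in 17.9%, 20.1%, 20.9% and 17.1%. The span of a shared locus is the joint span of its rows, so these quartiles do not match genes in length. The 437 calls became 280 without C. rubella bud library 2, 283 without C. rubella bud library 4 and 257 without both libraries that hold 0.5. Calls over all rows numbered 4053 and became 2824, 2828 and 2343 in the same fits. The median difference was 0.02 on the log2(FPKM + 1) scale (quartiles -0.19 and 0.23), and 29 of the higher and 40 of the lower rows were at least 2-fold apart, where 2.40% and 4.15% of all 16923 rows tested were. In bulk tissue, fewer cells of a type and less RNA per cell cannot be told apart, here and in every comparison below.

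Opposite calls at 1 locus were rare, as were shared ones. Both partners were tested in 1119 pairs. They were called in opposite directions in 21 pairs (1.88%), where 2.58% of all 13094 partner and neighbour pairs tested were. In 30 pairs (2.68%) they were called in the same direction, against 4.22% of all pairs. Those 30 comprised 10 pairs (0.894%) with both rows higher and 20 (1.79%) with both lower in C. rubella, against 1.92% and 2.30% of all pairs. A single partner was called in 338 pairs (30.2%, against 35.3% of all pairs) and none in 730 (65.2%, against 57.9%). Of the 51 partner pairs with both rows called, 41.2% were opposite, against 37.7% of 840 such neighbour pairs. The counts changed with the libraries used. Only 10 opposite pairs were left without C. rubella bud library 2 or 4, or without C. grandiflora bud library 2 or 4. Calls over all rows also fell in those fits, from 4053 to between 2824 and 2921. The smaller number of libraries and the particular library left out cannot be told apart here. The 30 pairs of the same direction became 19, 13, 18 and 14 without C. rubella bud library 1, 2, 3 or 4, and 17 without C. grandiflora bud library 4.

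**Figure D2:**
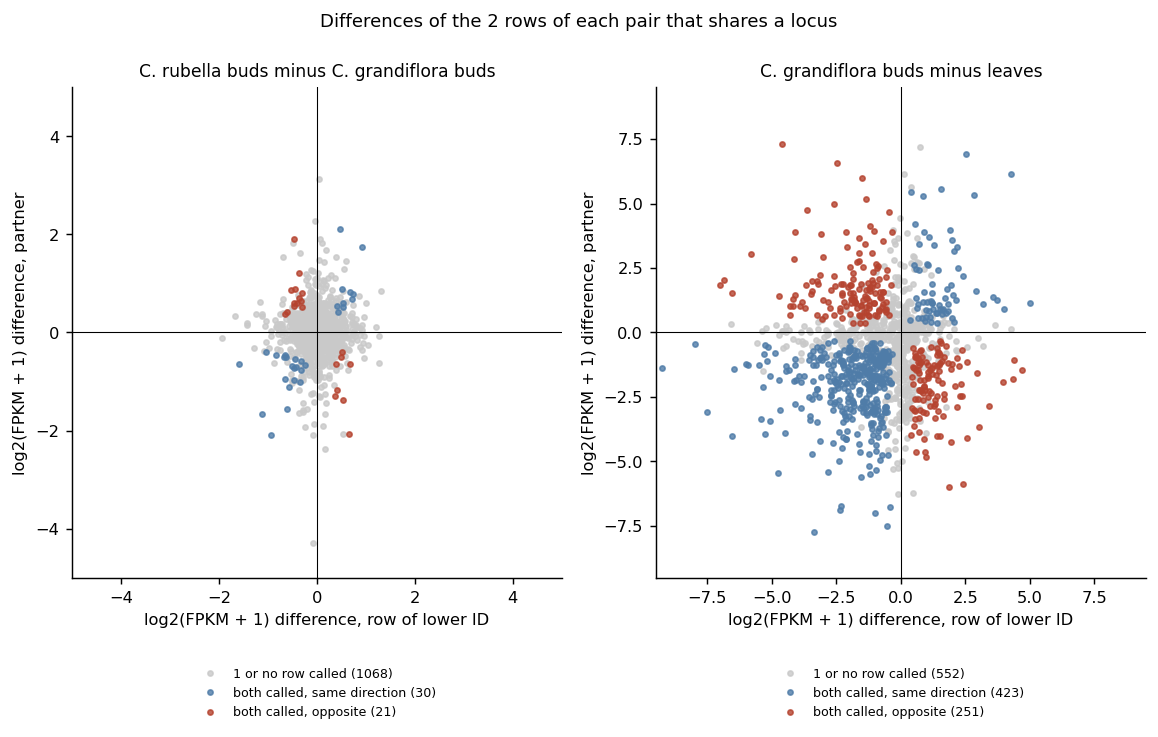
Each point is a partner pair, with the log2(FPKM + 1) difference of the row of lower ID on the x axis and that of its partner on the y axis, for C. rubella minus C. grandiflora buds (left) and C. grandiflora buds minus leaves (right). Pairs with both rows called in opposite directions (red) number 21 on the left and 251 on the right, and pairs called in the same direction (blue) number 30 and 423.

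A log2 ratio below is the difference between the log2(FPKM + 1) values of 2 rows, which understates the ratio of levels for low rows. The balance between partners was tested directly as the change of their log2 ratio. It differed between species in 234 of 1119 partner pairs (20.9%) by limma, where 24.4% of all pairs tested did, and in 24.8% of the 11975 neighbour pairs. In 93 of the 1119 partner pairs such a change was at least 1 on the log2 scale, where 12.2% of all pairs had one. The 234 pairs became 150 without C. rubella bud library 2, 155 without C. rubella bud library 4 and 147 without C. grandiflora bud library 2 or 4. Among the 234 pairs, the rows themselves were called in opposite directions in 21, in the same direction in 4 and singly in 169, and in 40 neither row was called. A full exchange, with one partner higher in every C. rubella bud and the other in every C. grandiflora bud, was seen in 20 of 1311 pairs (1.53%), and in 1.66% of all pairs.

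Among loci with opposite species calls, the largest change of ratio was at scaffold 3, 1033126 to 1036784. Carubv10014679m measured 101, 107, 108 and 102.9 FPKM in C. rubella buds, against 70.5, 61.1, 78.9 and 56.7 FPKM in C. grandiflora buds. Its partner Carubv10016292m measured 10.9, 8.20, 21.0 and 7.63 FPKM in C. rubella buds, against 40.3, 50.7, 39.1 and 74.0 FPKM in C. grandiflora buds. The groups of libraries did not overlap for either row, and the partners were near each other in level in C. grandiflora buds only. Carubv10014679m rose by 0.65 in C. rubella on the log2(FPKM + 1) scale (SE 0.108, limma adjusted p = 0.00537), and Carubv10016292m fell by 2.07 (SE 0.319, limma adjusted p = 0.00423). Their log2 ratio was 3.14 ± 0.595 in C. rubella buds, against 0.42 ± 0.613 in C. grandiflora buds (SD over 4 libraries each), a change of 2.72 (SE 0.372, limma adjusted p = 0.00268). In leaves Carubv10016292m was listed at 0 in 7 of 10 libraries and reached 0.335 FPKM, while Carubv10014679m ran from 6.16 over a median of 17.3 to 213 FPKM.

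At scaffold 8, 8412089 to 8417700, the higher partner was exchanged. Carubv10026219m measured 6.66, 8.31, 6.33 and 6.44 FPKM in C. rubella buds, against 10.8, 9.74, 9.21 and 10.2 FPKM in C. grandiflora buds. Carubv10026907m measured 8.63, 10.7, 11.9 and 10.2 FPKM in C. rubella buds, against 2.14, 1.70, 2.99 and 1.36 FPKM in C. grandiflora buds. Carubv10026907m was the higher partner in every C. rubella bud and the lower one in every C. grandiflora bud. It rose by 1.92 in C. rubella (SE 0.176, limma adjusted p = 0.000736), and Carubv10026219m fell by 0.47 (SE 0.105, limma adjusted p = 0.0147), a call that was lost without both libraries that hold 0.5 (limma adjusted p = 0.0795). The log2 ratio of Carubv10026219m to Carubv10026907m changed by -2.39 (SE 0.217, limma adjusted p = 0.000573).

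At scaffold 5, 13240291 to 13243242, Carubv10017856m measured 134, 195, 176 and 173 FPKM in C. rubella buds, against 102, 108, 137 and 118 FPKM in C. grandiflora buds. Carubv10019512m measured 12.6, 18.9, 11.7 and 10.6 FPKM in C. rubella buds, against 38.8, 34.8, 29.7 and 40.4 FPKM in C. grandiflora buds. The groups overlapped for the first row, at 134 and 137 FPKM, and not for the second. Carubv10019512m fell by 1.38 (SE 0.177, limma adjusted p = 0.00224). Carubv10017856m rose by 0.53 (SE 0.138, limma adjusted p = 0.0259), but 6 of the 8 fits that left out 1 bud library lost this call, with limma adjusted p up to 0.0663. The log2 ratio changed by 1.91 (SE 0.228, limma adjusted p = 0.00171). In leaves the pair was further apart still, with Carubv10017856m at 340.5 to 1968 FPKM and Carubv10019512m at 0 to 0.492 FPKM.

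**Figure D3:**
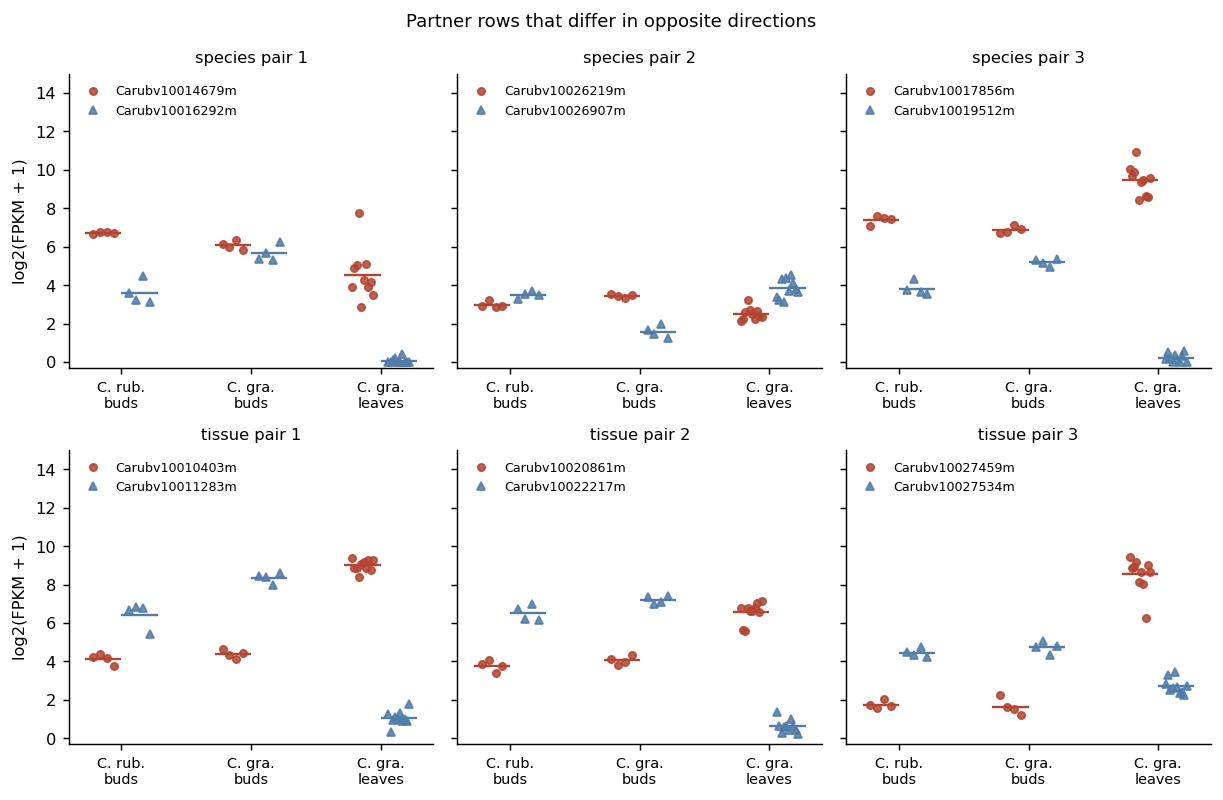
Level of both partners in every library, as log2(FPKM + 1), for the 3 named loci with opposite species calls (top) and the 3 with opposite tissue calls (bottom), with lines for group means. In the top row the distance between partners differs between C. rubella and C. grandiflora buds, and in the bottom row the partner that is higher in buds is the lower one in leaves.

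At other loci both partners differed in the same direction. At scaffold 1, 2957101 to 2962343, Carubv10009223m measured 14.4, 14.5, 11.1 and 12.99 FPKM in C. rubella buds, against 8.74, 8.20, 6.96 and 7.66 FPKM in C. grandiflora buds. Carubv10012670m measured 6.36, 11.2, 7.19 and 7.93 FPKM in C. rubella buds, against 4.31, 5.08, 4.12 and 3.10 FPKM in C. grandiflora buds. The groups did not overlap for either row. They rose in C. rubella by 0.68 (SE 0.110, limma adjusted p = 0.00521) and 0.82 (SE 0.183, limma adjusted p = 0.0152).

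At scaffold 6, 1638788 to 1643117, Carubv10001010m and Carubv10001692m rose in C. rubella by 0.72 (SE 0.171, limma adjusted p = 0.0191) and 0.68 (SE 0.144, limma adjusted p = 0.0122). Carubv10001010m had a mean of 11.7 ± 3.04 FPKM in C. rubella buds and 6.51 ± 0.424 FPKM in C. grandiflora buds (SD, n = 4 each). For Carubv10001692m the means were 16.7 ± 3.49 and 9.86 ± 0.260 FPKM, and its call was lost without both libraries that hold 0.5 (limma adjusted p = 0.0570). At scaffold 8, 10954018 to 10960068, Carubv10026311m and Carubv10028382m rose by 0.73 (limma adjusted p = 0.0346) and 0.79 (limma adjusted p = 0.0244). Both calls were fragile: the first was lost in 6 and the second in 5 of the 8 fits that left out 1 bud library, with limma adjusted p up to 0.0855 and 0.0628. Without both libraries that hold 0.5 their limma adjusted p were 0.147 and 0.115.

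At other loci a single partner carried the species difference. At scaffold 6, 2543285 to 2548304, Carubv10003590m measured 2.34, 0.96, 0.5 and 1.48 FPKM in C. rubella buds, against 10.4, 80.9, 70.8 and 53.7 FPKM in C. grandiflora buds. Its partner Carubv10000503m measured 18.5, 17.4, 19.8 and 22.8 FPKM in C. rubella buds, against 17.7, 22.4, 23.7 and 19.4 FPKM in C. grandiflora buds. The groups were well separated for the first row and overlapped for the second. Carubv10003590m fell by 4.30 (SE 0.595, limma adjusted p = 0.00292), Carubv10000503m had a difference of -0.08 (SE 0.120, limma adjusted p = 0.668), and their ratio changed by 4.22 (SE 0.538, limma adjusted p = 0.00223).

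The opposite case lay at scaffold 6, 14439025 to 14443760. Carubv10003773m measured 81.8, 75.9, 58.0 and 26.9 FPKM in C. rubella buds, against 4.99, 6.47, 14.7 and 1.54 FPKM in C. grandiflora buds. It rose by 3.13 (SE 0.549, limma adjusted p = 0.00666) with no overlap between the groups. Carubv10000186m lay between 7.47 and 8.90 FPKM in C. rubella buds and between 6.45 and 9.19 FPKM in C. grandiflora buds, a difference of 0.04 (SE 0.125, limma adjusted p = 0.848).

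The second comparison set C. grandiflora buds against C. grandiflora leaves. Rows of shared loci were mostly lower in buds, whereas other rows were more often higher. Of 2403 rows of shared loci tested, 1759 (73.2%) passed an adjusted p of 0.05 in limma, against 69.7% of all 17229 rows tested. Of these, 505 were higher and 1254 lower in buds, where 37.4% and 32.2% of all rows tested were. Thus 71.3% of the calls on shared loci were lower in buds, against 41.9% of the 10241 calls on other rows. At least 2-fold apart were 339 of the higher and 994 of the lower rows, where 27.7% and 24.3% of all rows tested were. The median difference was -0.68 (quartiles -1.82 and 0.40), against 0.23 for other rows, a gap of -0.92 on the log2 scale. Upper-quartile scaling moved the median of all rows to 0.41, where it was 0.13 before, and the share of calls lower in buds to 61.8% for shared loci and 37.1% for all rows. Quantile normalization gave 74.7% and 49.9%. Without leaf library 4, 556 rows of shared loci were higher and 1263 lower.

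**Figure D4:**
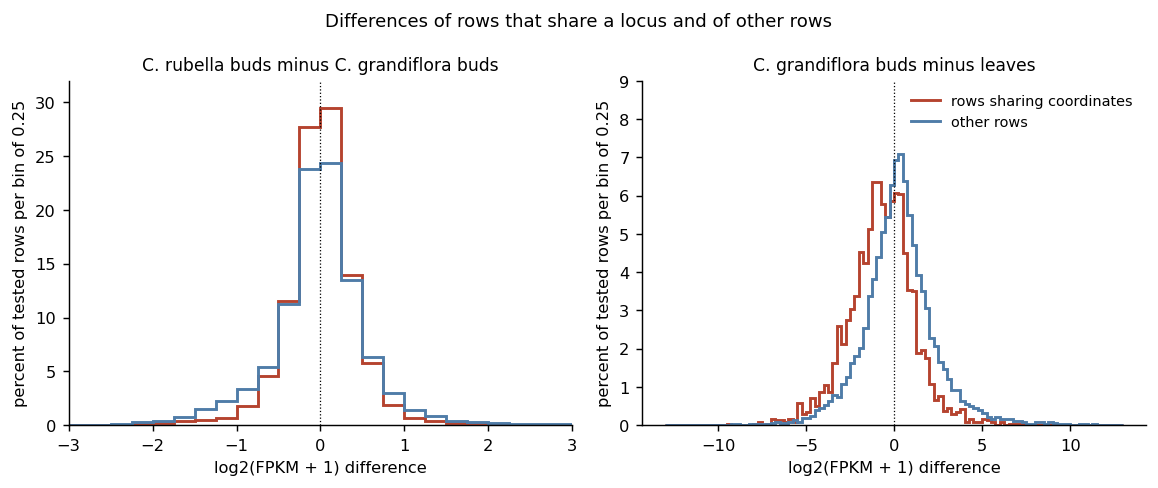
Distribution of the log2(FPKM + 1) difference over tested rows, as percent of rows per bin of 0.25, for C. rubella minus C. grandiflora buds (left) and C. grandiflora buds minus leaves (right). The left axis ends at -3 and 3. The red curve of rows that share coordinates is centred like the blue curve of other rows on the left and is shifted toward lower values on the right, with medians of -0.68 and 0.23.

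The gap was seen on each main scaffold and in each of the 4 bands of bud level examined, from 1 FPKM upward. On each of the 8 main scaffolds the rows of shared loci had the lower median difference, by -0.75 on scaffold 2 to -1.17 on scaffold 8. By bud level it was -1.46 for rows with a C. grandiflora bud mean of 1 to 5 FPKM, -0.79 for 5 to 20, -0.68 for 20 to 100 and -0.78 for 100 FPKM and over. The bud mean that set these bands is also part of the difference. Within a band the gap therefore mainly restates the higher leaf levels of the rows of shared loci, and it is not separate evidence. Median differences were -0.69 for rows of loci with 2 rows and -0.52 for those with 3, while the 7 tested rows of loci with 4 had 0.62. Over quartiles of the locus span, from short to long, the rows of shared loci had medians of -1.02, -0.79, -0.69 and -0.24, and those of single-row loci, by quartiles of their own spans, were 0.36, 0.10, 0.15 and 0.33. Single-row loci less than 200 bp from the next locus, close to another gene but with coordinates of their own, had a median of 0.12, and those 5000 bp or more away had 0.15. Whether the columns of the tissues divided reads between partners in different ways was not tested.

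Partners often differed in tissue direction, though the share of opposite pairs was close to that of neighbours. Both partners were tested in 1226 pairs. They were called in opposite directions in 251 pairs (20.5%), where 21.5% of all 13487 pairs tested were. Both were lower in buds in 355 (29.0%, against 11.1% of all pairs) and both higher in 68 (5.55%, against 16.4%). Only 1 was called in 453 (36.9%, against 41.4% of all pairs) and none in 99 (8.08%, against 9.62%). The 423 pairs of the same direction were 34.5% of partner pairs, against 27.5% of all pairs. Of the 2403 rows of shared loci tested, 1254 were lower and 505 higher in buds. That lean of single rows by itself raises the share of pairs with both lower and reduces the share with both higher. The contrast with all pairs is thus not a measure of how partners go together. Among pairs with both rows called, 37.2% of 674 partner pairs and 44.6% of 5936 neighbour pairs were opposite. These shares are not directly comparable. Of the calls, 71.3% on shared loci and 41.9% on other rows were lower in buds, and the more unequal split by itself leaves fewer opposite pairs. Under upper-quartile scaling the order turned, to 44.5% of partner pairs and 40.7% of neighbour pairs.

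The log2 ratio of partners differed between buds and leaves in 884 of 1226 pairs (72.1%) by limma, against 70.8% of all pairs tested and 70.7% of neighbour pairs. In 788 of the 1226 partner pairs such a change was at least 1, where 63.6% of all pairs had one. The median absolute change was 1.64 for partners and 1.59 for neighbours. The rows of these 884 pairs were called in opposite directions in 251, in the same direction in 251 and singly in 366, and in 16 neither was called. One partner was higher in every bud and the other in every leaf in 170 of 1299 pairs (13.1%), where 11.0% of all pairs showed such an exchange.

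The largest opposite change was at scaffold 1, 17365988 to 17371955. Carubv10010403m measured 24.3, 19.0, 16.3 and 20.5 FPKM in C. grandiflora buds, against 329.7 over a median of 507 to 669.9 FPKM in leaves. Carubv10011283m measured 342, 338, 255 and 389 FPKM in C. grandiflora buds, against 0.243 over a median of 1.0 to 2.48 FPKM in leaves. The groups were far from overlapping for either row, and the higher partner was exchanged in every library. In buds Carubv10010403m fell by 4.62 (SE 0.181, limma adjusted p = 2.52e-12) and Carubv10011283m rose by 7.31 (SE 0.217, limma adjusted p = 8.81e-14). Their log2 ratio was -3.98 ± 0.191 in buds and 7.95 ± 0.372 in leaves (SD, n = 4 and 10), a change of -11.92 (SE 0.233, limma adjusted p = 3.21e-15).

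The same exchange was seen at scaffold 2, 14085125 to 14088093. Carubv10020861m measured 16.2, 13.2, 14.4 and 19.1 FPKM in C. grandiflora buds, against 47.0 over a median of 102 to 141 FPKM in leaves. Carubv10022217m measured 162, 127, 137 and 171 FPKM in C. grandiflora buds, against 0.186 over a median of 0.534 to 1.63 FPKM in leaves. In buds the first fell by 2.50 (SE 0.265, limma adjusted p = 5.21e-07) and the second rose by 6.59 (SE 0.201, limma adjusted p = 1.24e-13).

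At scaffold 8, 1918561 to 1925897, Carubv10027459m measured 3.81, 2.07, 1.84 and 1.35 FPKM in C. grandiflora buds, against 76.7 over a median of 439 to 687 FPKM in leaves. Carubv10027534m measured 26.0, 32.2, 19.4 and 27.2 FPKM in C. grandiflora buds, against 3.75 over a median of 5.23 to 9.98 FPKM in leaves. Neither row's groups overlapped. In buds Carubv10027459m fell by 6.87 (SE 0.434, limma adjusted p = 1.005e-09) and Carubv10027534m rose by 2.03 (SE 0.225, limma adjusted p = 8.70e-07).

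Other partners moved together between tissues. At scaffold 6, 4426400 to 4429774, Carubv10001054m measured 1.96, 2.69, 1.89 and 2.23 FPKM in C. grandiflora buds, against 65.3 over a median of 83.8 to 138 FPKM in leaves. Carubv10001732m measured 1.45, 2.22, 1.95 and 1.71 FPKM in C. grandiflora buds, against 67.2 over a median of 125 to 185 FPKM in leaves. Both were low in all buds and high in all leaves, and in buds the first fell by 4.78 (SE 0.177, limma adjusted p = 1.31e-12) and the second fell by 5.43 (SE 0.241, limma adjusted p = 1.22e-11). At scaffold 1, 19223876 to 19239255, Carubv10008071m fell by 5.27 and Carubv10009573m fell by 3.93 (limma adjusted p = 2.55e-10 and 9.71e-11). Their buds lay at 0.1 to 0.32 and 2.14 to 3.79 FPKM and their leaves at 24.6 to 92.5 and 44.8 to 98.4 FPKM. At scaffold 3, 4946592 to 4950104, Carubv10013998m fell by 4.51 and Carubv10016402m fell by 3.91 (limma adjusted p = 8.22e-13 and 1.86e-08), with buds at 52.8 to 61.6 and 6.79 to 15.2 FPKM and leaves at 957 to 1608 and 94.4 to 347 FPKM.

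A single partner could carry nearly all of a tissue difference. At scaffold 2, 13402358 to 13406425, Carubv10021122m measured 339.6, 356, 287 and 327 FPKM in C. grandiflora buds, against 14655 over a median of 31274 to 46818 FPKM in leaves. Its partner Carubv10021995m measured 14.3, 17.3, 14.4 and 17.1 FPKM in C. grandiflora buds, against 6.56 over a median of 12.3 to 21.7 FPKM in leaves. In buds the first fell by 6.58 (SE 0.412, limma adjusted p = 8.76e-10) without overlap, and the second, whose groups overlapped, had a difference of 0.34 (SE 0.229, limma adjusted p = 0.198). At scaffold 2, 10162335 to 10166532, Carubv10021850m fell by 6.24 (SE 0.201, limma adjusted p = 2.41e-13), with 6.22 to 7.12 FPKM in buds and 357 to 857 FPKM in leaves. Carubv10020004m had a difference of 0.47 (SE 0.219, limma adjusted p = 0.0671), with 52.4 to 63.4 FPKM in buds and 27.4 to 61.7 FPKM in leaves. Carubv10021995m and Carubv10020004m passed the threshold under upper-quartile scaling, at 0.63 and 0.78.

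Loci of 4 rows held rows with different tissue directions. At scaffold 6, 16586411 to 16592380, Carubv10003743m measured 328, 437, 299 and 457 FPKM in C. grandiflora buds, against 12.99 over a median of 24.5 to 33.0 FPKM in leaves. Carubv10003522m measured 8.83, 12.1, 8.50 and 11.6 FPKM in C. grandiflora buds, against 92.5 over a median of 198 to 294 FPKM in leaves. Neither overlapped between tissues, and they lay on opposite sides: Carubv10003743m rose in buds by 3.91 (limma adjusted p = 1.40e-10) and Carubv10003522m fell by 4.12 (limma adjusted p = 4.62e-10). Of the other rows there, Carubv10001670m rose by 0.90 (limma adjusted p = 0.00185) and Carubv10002926m fell by 2.11 (limma adjusted p = 1.16e-06).

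The other such locus, at scaffold 4, 269146 to 280827, held a row that was low throughout. Carubv10025023m was listed at 0 in all leaves and in 5 of the 8 bud libraries, and it failed the filter on low values. Carubv10025528m measured 17.0, 9.71, 9.39 and 11.4 FPKM in C. grandiflora buds and was listed at 0 in all 10 leaves. Carubv10022802m fell by 1.62 in buds (limma adjusted p = 4.71e-05). Carubv10023099m had a difference of 0.62 (limma adjusted p = 0.0613), which passed under upper-quartile scaling and without leaf library 4.

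Across libraries, the correlation of partners was low at the median, as it was for other pairs. Pearson's r of log2(FPKM + 1) between partners over the 10 leaf libraries had a median of 0.0999 over 1092 pairs with both rows at a mean of at least 1 FPKM (quartiles -0.21 and 0.39). Neighbour pairs had a median of 0.149 over 9064 pairs, and all 14093249 pairs of rows with different coordinates on the same scaffold had 0.096. An r of at least 0.8 was reached by 26 partner pairs (2.38%), 3.21% of neighbour pairs and 1.76% of all scaffold pairs. With Spearman's rho those shares were 1.47%, 3.10% and 1.601%, so partners were not above scaffold pairs by that measure. An r of -0.5 or below was seen in 8.15%, 6.56% and 7.39% of these pairs. Leaving out 1 leaf library moved the partners' median between 0.0643 and 0.132. With each library centred on its median it was 0.0334, against 0.0561 for neighbours. All these pairs share the same libraries, so depth and library effects enter every r.

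Over the 8 bud libraries, with the mean of each species subtracted, the median r between partners was 0.0239 over 1121 pairs, against 0.0595 over 12169 neighbour pairs and 0.009 over 18472645 scaffold pairs. Both ends of the distribution of Pearson's r held more partner pairs. An r of at least 0.8 was reached by 4.996%, against 3.74% of neighbour and 2.06% of scaffold pairs. An r of -0.5 or below was seen in 15.7%, against 12.3% and 13.4%. By Spearman's rho the upper shares were 3.39%, 3.18% and 1.89% for partners, neighbours and scaffold pairs, so partners were close to neighbours there. The lower shares by rho were 15.1%, 10.7% and 12.8%. Leaving out 1 bud library moved the partners' median r between 0.00512 and 0.0312, with 0.00512 without C. grandiflora bud library 2, 0.00616 without C. grandiflora bud library 3 and 0.00765 without C. rubella bud library 4. These values lay on both sides of the 0.009 that scaffold pairs had over all 8 libraries, though the sets of libraries compared there are not the same. Centring each library gave a median of 0.0565, against 0.0776 for neighbours. Leaf and bud values of the same pair were weakly related, with r of 0.0807 across 987 pairs, and 3 pairs reached 0.8 in both.

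**Figure D5:**
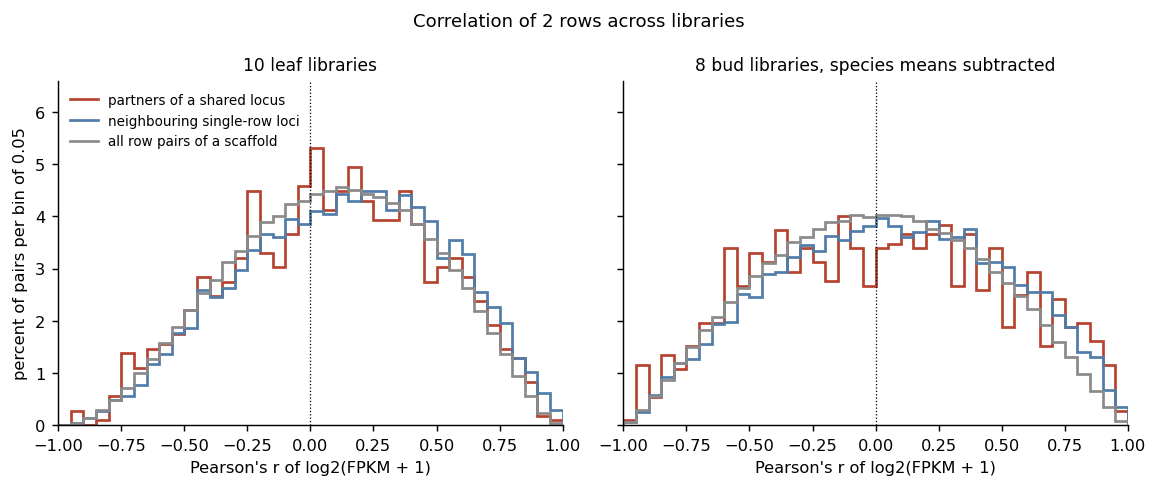
Distribution of Pearson's r between 2 rows over 10 leaf libraries (left) and over 8 bud libraries with species means subtracted (right), as percent of pairs per bin of 0.05, for partners (red), neighbouring single-row loci (blue) and all row pairs of a scaffold (grey). The 3 curves largely overlap, with partner medians of 0.0999 in leaves and 0.0239 in buds.

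The most parallel pair in leaves was Carubv10000647m and Carubv10003670m, at scaffold 6, 8949581 to 8956562, which was also the pair of most equal level. Carubv10000647m ran from 16.1 over a median of 29.6 to 62.8 FPKM in leaves, and Carubv10003670m from 14.6 over 25.5 to 54.1 FPKM. Their r over the 10 leaves was 0.963 (Spearman's rho 0.964) and 0.903 without the 2 libraries farthest from the median. Carubv10016919m and Carubv10017374m, at scaffold 5, 11434592 to 11439551, had an r of 0.891 (rho 0.855), and 0.743 without the 2 farthest libraries. Leaf library 4 was one of those in both pairs.

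The most opposed pair in leaves was Carubv10004808m and Carubv10005728m, at scaffold 7, 1651612 to 1657320, with an r of -0.941 (rho -0.927) and -0.860 without the 2 farthest libraries. Carubv10004808m ran from 2.06 over a median of 4.43 to 27.4 FPKM in leaves, and Carubv10005728m from 64.9 over 103.5 to 151 FPKM. Carubv10026986m and Carubv10026991m, at scaffold 8, 10333574 to 10338034, had an r of -0.901 (rho -0.903) and -0.911 without the 2 farthest libraries. Over buds, with species means subtracted, these pairs had r of -0.678 and -0.771, and the parallel pairs above had 0.647 and 0.911. The sign in buds was thus that in leaves at all 4 loci, which were picked as the extremes in leaves. This did not hold for opposed pairs in general. The 82 pairs with a leaf r of -0.5 or below had a median bud r of 0.077, against 0.0122 over all 987 pairs. The 25 pairs with a leaf r of at least 0.8 had a median bud r of 0.349.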

How the data were processed

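The authors deposited 1 table of FPKM values for 19350 rows and 18 libraries. Its header names CR v1 JGI as the build of the coordinates. Bowtie, TopHat and Cufflinks are named in the submitters' processing notes; versions, parameters, strand and the division of reads between overlapping rows are not stated there. Columns were matched to libraries by name, and none was left over.

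Values were analysed as log2(FPKM + 1), so a fold understates the change of low rows. Rows were tested with at least 1 FPKM in at least 4 libraries of the fit, with limma 3.58.1 in R 4.3.3 (mean trend, empirical Bayes), C. rubella minus C. grandiflora buds (4 and 4) and C. grandiflora buds minus leaves (4 and 10). Ratios of partner and neighbour pairs were fitted together without a trend, so a pair's p was adjusted with all pairs tested. All p-values were Benjamini-Hochberg adjusted at 0.05 over everything tested. Partner pairs of a locus with 3 or 4 rows share rows.

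Named loci had exactly 2 rows, both tested, and, in the group where each was higher, a mean of 5 FPKM or more. Per comparison the rule took the 3 opposite pairs of largest ratio change, the 3 same-direction pairs of largest smaller difference and the 2 pairs of largest ratio change with 1 row called. It also took the 2 extremes of leaf correlation and of level each way, and 1 locus with the most rows; the other 4-row locus was added after its values were seen. The rows, lists and tests were chosen with earlier results of these data known. Planned product groups and marker lists were not run, since the IDs are not paired with names here.

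The fits were tested on simulated data with 200 rows changed. Row fits recovered 95% (species) and 56% (tissue) of changes of 1 on the log2 scale, and 98% and 93% of changes of 2. Partner ratio fits recovered 52.9% and 17.9% of changes of 1, and 86.3% and 70.5% of changes of 2. In that setting ratio changes of 1 were thus often missed. The setting differed from the data, where 4053 (species) and 12000 (tissue) rows were called, and the adjustment of p depends on that number. Changed rows were drawn from those with a mean above about 5 FPKM, and noise was independent between partners. These rates therefore do not give the share of changes that the real fits missed. Alternatives changed the pseudocount, the filter, the scaling and the value 0.5, or left out single libraries.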

Additional observations from a re-analysis of the deposited data

Results flagged for a closer look

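Of 165 sets of libraries searched, 19 held a library well away from the others in its group. For normally distributed values chance alone would give about 1 in 20. The search used FPKM without logs, in rows partly named for extreme values, so 19 cannot be read as an excess over that rate. Leaf library 4 was high in 8 of the 19 sets, with 213 FPKM for Carubv10014679m (next highest 33.0), 8.48 for Carubv10026219m (5.57) and 1968 for Carubv10017856m (1032). It also held 62.8 FPKM for Carubv10000647m (37.1), 46.5 for Carubv10016919m (10.8), 27.4 for Carubv10004808m (7.87), 51.0 for Carubv10001670m (28.5) and 19.7 for Carubv10022802m (10.1). Across rows of shared loci, its median correlation with the other leaf libraries was 0.875, and those of the other leaves were 0.923 to 0.943. Across other rows it was 0.871, and the other leaves had 0.902 to 0.916.

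Other leaf values that stood apart were 0.335 FPKM for Carubv10016292m in library 7, 0.497 for Carubv10003590m in library 3 and 24.4 for Carubv10022744m in library 6. In C. rubella buds, library 2 was high for Carubv10026219m at 8.31 FPKM and low for Carubv10016402m at 6.75 FPKM, and library 1 was high for Carubv10026986m at 32.9 FPKM (next highest 23.4). In C. grandiflora buds, library 3 was high for Carubv10003670m at 73.3 FPKM, and library 1 was high for Carubv10002373m at 2588 FPKM (next highest 1629.8) and for Carubv10025023m at 0.96 FPKM, where the other 3 were listed at 0. Leaf library 7 had 52 rows of shared loci listed at 0, and the next lowest leaf had 81. C. rubella bud library 1 had 4, and the next lowest had 44; it is one of the libraries that hold 0.5.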

How the results depend on the processing

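No paired analysis was possible because the labels give no replicate numbers that groups share; the origins that a bud and a leaf plant had in common were not used as a block. The 437 rows called ranged from 280 to 446 with 1 library left out, the 21 opposite pairs from 10 to 26, the 30 pairs of the same direction from 13 to 28, and the 234 changed ratios from 147 to 222. Without both libraries that hold 0.5, chosen after seeing the data, these counts were 257, 10, 14 and 121. A filter of 5 FPKM left 155 changed ratios with fewer pairs tested. Tissue counts stayed within 1.5 times under every alternative run. The gap of -0.92 between rows of shared loci and other rows became -0.63 with a pseudocount of 5, -1.02 with 0.1, -0.87 without a filter and -0.97 after quantile normalization; the cause was not tested. Partner differences in level were 1.69, 1.64 and 2.32 with a pseudocount of 0.1, and 1.26, 1.26 and 1.82 where both rows had at least 1 FPKM, in C. rubella buds, C. grandiflora buds and leaves. Centring libraries gave median correlations of 0.0334 in leaves and 0.0565 in buds. Of 700 alternative values for named rows and ratios, 672 kept their direction and their side of the threshold, 21 lost their call, 5 gained one and 2 turned. Those were the uncalled difference of Carubv10000186m, which ranged from -0.048 (without C. grandiflora bud library 2) to 0.103 with 1 library left out and was -0.025 without both libraries that hold 0.5. Without leaf library 4, also chosen after seeing the data, 1819 rows of shared loci, 273 opposite pairs and 908 ratios were called, and the gap was -0.94. Read depth is unknown, so no counting error can be given.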
